A study of Rattus norvegicus with 4 samples.

Results

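Genes named after nuclear-encoded subunits of the 5 complexes of oxidative phosphorylation were examined in NR8383. NR8383 is a macrophage line that was established by lavage of the lung of a normal rat. A gene belonged to this group where its rat symbol began with Ndufa, Ndufb, Ndufc, Ndufs, Ndufv, Uqcr, Cox4, Cox5, Cox6, Cox7, Cox8 or Atp5, or was Sdha, Sdhb, Sdhc, Sdhd or Cyc1, with the Ndufaf assembly factors left out. This gave 81 of the 16579 genes that the arrays measured under a symbol, on 109 of 21109 named probes, with 35 genes for complex I, 4 for complex II, 9 for complex III, 17 for complex IV and 16 for complex V. Among the 17 was Cox6c-ps1, a transcribed pseudogene, and among the 35 Ndufa10l1, a copy of Ndufa10. The 16 also held Atp5if1, the inhibitor of ATP hydrolysis, and the 35 held Ndufa4l2, a relative of Ndufa4. The counts are therefore of genes by name and not of subunits alone. Genes such as Cox7a1, Atp5mc3, Ndufa3, Ndufa8 and Ndufs6 were not analysed here, since no probe carried their symbol.

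All 4 samples formed 1 group of NR8383 cells at passage 20, with replicate numbers 1 to 4 and called biological replicates in the design text, exposed for 4 h to NRCWE001, a titanium dioxide (TiO2) material, at a dose given as 3 cm2/cm2. The labels name no genetic change, no vehicle and no other agent, and being 1 cell line the cells stand for rat alveolar macrophages only as that line does. Control cells without particles belong to the design but were not analysed here. Nothing below therefore shows whether the exposure raised or lowered a transcript. Each culture was hybridised to its own one-colour array on 1 slide, so differences between cultures and between arrays cannot be told apart.

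Oxidative phosphorylation takes place in the inner mitochondrial membrane. Complex I, the NADH dehydrogenase, and complex II, succinate dehydrogenase, pass electrons to ubiquinone, complex III passes them to cytochrome c, and complex IV, cytochrome c oxidase, passes them to oxygen. Complexes I, III and IV pump protons as they do so, and complex V, the ATP synthase, makes ATP as protons flow back. Macrophages are known to shift between this route and glycolysis with their state of activation, and some subunits of complex IV exist as isoforms made mainly in muscle, testis or lung.

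Transcripts of nearly the whole set were present in the exposed cells. A gene was counted as detected on an array where a probe of it was well above background on over 0.5 of its spots. By this measure 77 of 81 genes were detected on all 4 arrays, which is 95.1%, against 45.7% of all 16579 genes. The count was 32 of 35 for complex I, 4 of 4 for complex II, 9 of 9 for complex III, 16 of 17 for complex IV and 16 of 16 for complex V. Over single probes it was 100 of 109, against 43.8% of all named probes. It stayed at 77 with a more lenient flag. RNA per cell and the number of cells that carry a transcript cannot be told apart in such bulk samples.

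The genes outside the 77 were Ndufa4l2, Ndufs4, Cox8c and Ndufa10. Ndufa4l2, a relative of Ndufa4 that hypoxia induces, was not well above background on any array with either of its probes. Ndufs4, a small accessory subunit of complex I, also stayed at background on all 4 arrays with its 1 probe. Ndufa10, an accessory subunit of complex I, was detected on 1 array. Its log2 levels were -4.35, -6.70, -5.09 and -5.91 on replicates 1 to 4. Every level here is log2 of the signal minus the log2 75th percentile of the same array, and 0 on this scale stood for 433, 347, 554 and 414 intensity units on replicates 1 to 4. The copy Ndufa10l1 was detected on all 4 arrays at 3.84, 3.93, 3.75 and 4.00. A gene at background on its probe is not shown to be silent.

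Several subunits known from other tissues were detected. Cox4i2, the isoform of subunit 4 known from lung and from low oxygen, lay at -0.79, -0.62, -0.90 and -0.82 on replicates 1 to 4. Cox6a2, the heart and skeletal muscle isoform of subunit 6a, lay at 1.60, 1.84, 1.74 and 2.02, and its second probe was detected on all 4 arrays too. Cox6b2, the testis isoform of subunit 6b, lay at 1.13, 1.58, 0.84 and 1.15. All 3 genes were thus measured above background in each culture, with SDs of 0.11, 0.18 and 0.30. Cox8b, known from heart, skeletal muscle and brown fat, was detected as well, at -4.12, -3.68, -3.84 and -3.89, which was a signal of 24.9, 27.1, 38.6 and 28.0 units after background subtraction. Cox8c, the testis isoform of the same subunit, was not well above background on any array.

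The widely expressed partners of these isoforms were all detected on 4 arrays. Cox4i1 lay at 7.24, 7.43, 7.07 and 7.38 on replicates 1 to 4, Cox6a1 at 7.88, 8.14, 7.78 and 8.18, and Cox8a at 6.58, 6.71, 6.38 and 6.93. Cox6b1 lay at -0.75, -0.32, -0.40 and -0.20. Cox7a2 lay at 6.04, 5.98, 5.84 and 6.01, and Cox7b at 2.80, 2.72, 3.31 and 2.87. Levels of different probes are not set against each other here, since probes bind with unequal strength, so the levels do not show which isoform was the more abundant. Ndufa4, placed under complex I by its name although it is known as a subunit of complex IV in mammals, lay at 4.69, 4.65, 4.72 and 4.71, a spread of 0.03 (SD, n = 4).

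Markers of the tissues these isoforms come from were set beside them. Of 14 muscle markers 4 were detected on all 4 arrays (Tnnt2, Tnni2, Actc1 and Mb), while the myosin genes Myh6, Myh7, Myh2 and Myh4 and the creatine kinase gene Ckm were at background. The summed signal of all 14 ran from 1.80 to 2.67 times the array's 75th percentile. Of 11 testis germ cell markers only Odf2, which also belongs to centrosomes of other cells, was detected, and the sum ran from 2.50 to 3.04. Of 16 measured macrophage markers 13 were detected (sum 374 to 450), with Marco, Adgre1 and Cd163 at background. Counts were 1 of 12 for lung epithelium (Foxj1; sum 0.245 to 0.408), 2 of 8 for lymphoid cells (Lck and Nkg7; sum 0.606 to 0.738) and 3 of 12 for fibroblasts and endothelium (Pecam1, Cdh5 and Vwf; sum 7.12 to 9.39). These sums add probes that bind with unequal strength, and a few bright genes can make up most of a sum. Among the macrophage markers, Lyz2 had a mean level of 7.77 and Tyrobp of 7.12. The sums therefore do not give amounts of cell types and are not compared between lists. The part of other cell types in the signal of Cox6a2, Cox6b2, Cox4i2 and Cox8b was not tested.

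**Figure D1:**
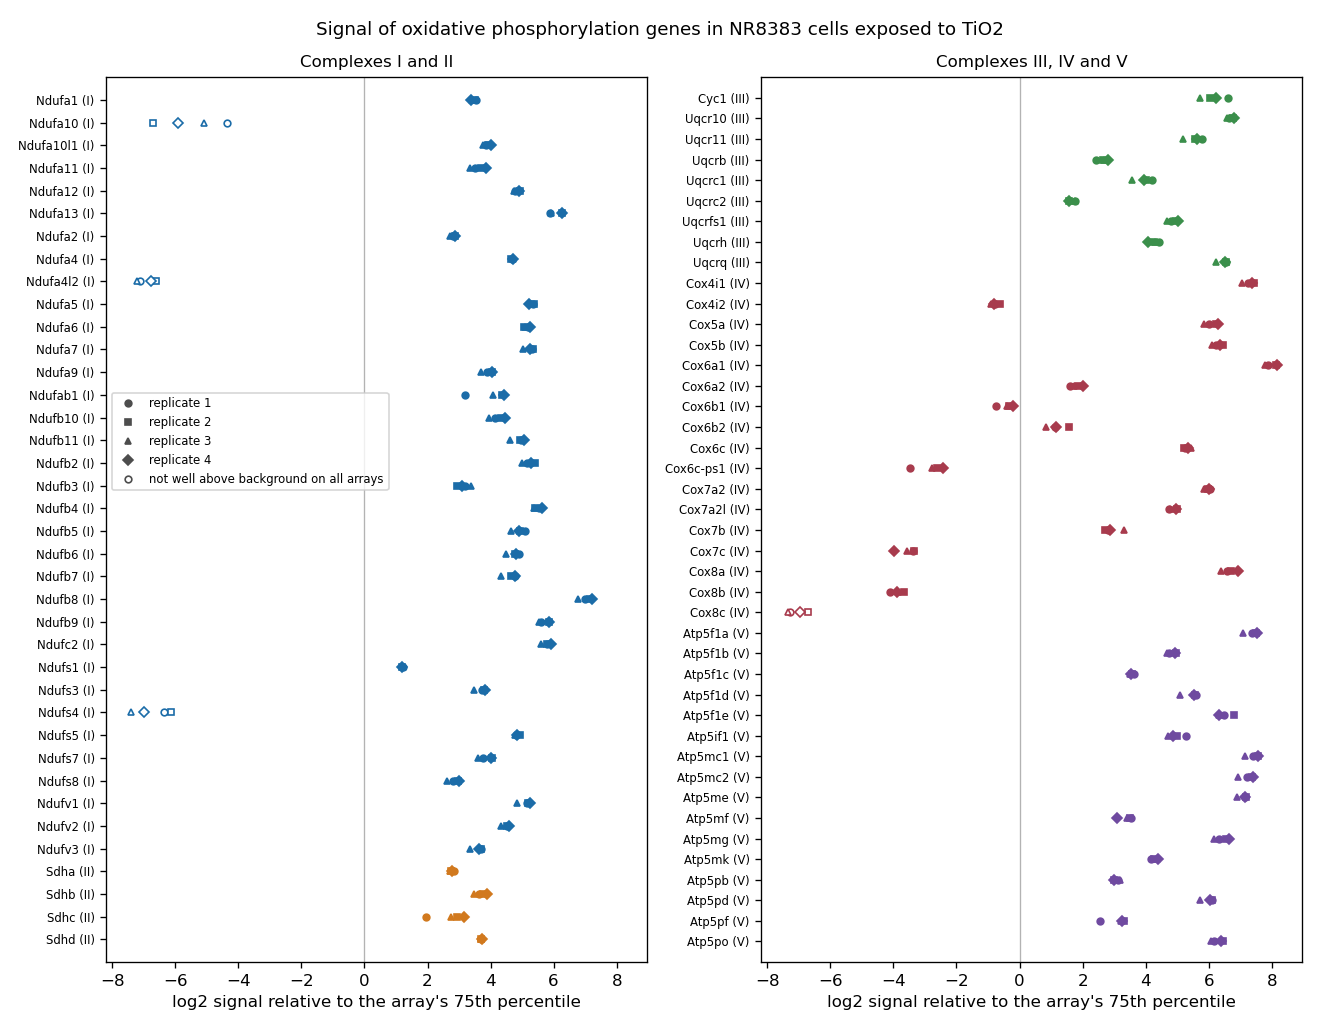
Log2 signal relative to the array's 75th percentile (x axis) for the genes of the set that are reported here (y axis, ordered by name within a complex, given in brackets). Each symbol is 1 array, colours mark the complex, and open symbols mark the 4 genes not well above background on all arrays, which lie at the left of the plot. For most genes the 4 symbols nearly coincide, and Ndufab1 and Sdhc have a replicate 1 symbol to the left of the others.

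Respiratory genes are known targets of NRF1, of ETS factors such as GABPA, of YY1 and of the oestrogen-related receptor ESRRA. Promoter windows of RefSeq on the assembly GRCr8, from 250 bases before to 50 bases after the start of the gene, were therefore read for the letters GCGCATG (NRF1), CCGGAAG (ETS family), AAGATGG (YY1) and AAGGTCA (nuclear receptors) on both strands. GCGCATG and its reverse complement can overlap. Of 81 genes 70 had a window. The set and the detected genes count 1 window per gene, while the share of all windows is over all 33469, with no such limit. The ETS letters stood in 21 of the 70 windows, which is 30.0%, against 21.0% of the windows of all genes detected on 4 arrays and 8.75% of all windows. The YY1 letters stood in 17 (24.3%, against 9.08% of detected genes and 7.01% of all). The NRF1 letters stood in 12 (17.1%, against 7.65% and 3.77%), and the nuclear receptor letters in 9 (12.9%, against 2.76% and 4.61%). At least 1 of the 4 strings stood in 40 windows (57.1%, against 34.8% and 21.8%). Atp5me, Atp5mg, Cox5b, Ndufa6 and Sdhb had both the NRF1 and the ETS letters. These are matches of letters and show no binding, and the shares were not tested.

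The windows of the 3 isoform genes of subunit 8 are printed because their detection differed, and that of Cox5b because it holds both strings. They were chosen after the matches had been seen. Each is the 250 bases before the start, 5′ to 3′ on the strand of the gene, on GRCr8, with matches of the 4 strings on either strand in capitals.
Cox8a, chr1:213833624-213833873, minus strand: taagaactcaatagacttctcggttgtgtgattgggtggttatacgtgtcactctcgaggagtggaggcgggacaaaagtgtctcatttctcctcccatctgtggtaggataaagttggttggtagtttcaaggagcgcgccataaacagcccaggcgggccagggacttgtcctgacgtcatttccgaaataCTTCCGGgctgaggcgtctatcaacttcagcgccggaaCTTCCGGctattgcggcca
Cox8b, chr1:205408274-205408523, minus strand: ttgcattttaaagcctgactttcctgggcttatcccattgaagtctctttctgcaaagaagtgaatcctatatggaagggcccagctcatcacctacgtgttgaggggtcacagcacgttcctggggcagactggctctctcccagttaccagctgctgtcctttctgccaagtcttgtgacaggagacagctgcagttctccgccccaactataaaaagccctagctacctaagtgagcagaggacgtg
Cox8c, chr6:127793129-127793378, plus strand: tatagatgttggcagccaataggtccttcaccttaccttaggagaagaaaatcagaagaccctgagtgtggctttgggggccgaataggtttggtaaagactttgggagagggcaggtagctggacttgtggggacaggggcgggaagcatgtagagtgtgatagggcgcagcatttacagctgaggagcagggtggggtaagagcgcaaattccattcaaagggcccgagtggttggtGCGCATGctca
Cox5b, chr9:46417587-46417836, plus strand: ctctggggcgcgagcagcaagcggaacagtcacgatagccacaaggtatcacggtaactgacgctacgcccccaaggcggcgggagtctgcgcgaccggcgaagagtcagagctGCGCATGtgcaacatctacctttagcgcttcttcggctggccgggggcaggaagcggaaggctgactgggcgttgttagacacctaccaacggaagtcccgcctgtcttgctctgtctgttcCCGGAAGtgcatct

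Cox8a, detected on all 4 arrays, carried the ETS letters on the minus strand at positions -57 and -19, the place of the leftmost base of the match, with -1 just before the start of the gene. Its window also held the YY1 and the nuclear receptor letters, across or after the start and so outside the printed bases. Cox8b held none of the 4 strings, which says only that these letters are absent from this window. Cox8c, at background on all arrays, carried the NRF1 letters at -11. Cox5b carried the NRF1 letters at -136 and the ETS letters at -14.

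In complex I, Ndufv1, which binds NADH and flavin, lay at 5.15, 5.18, 4.85 and 5.25 on replicates 1 to 4. Ndufs1, an iron-sulfur subunit next to it, lay at 1.23, 1.19, 1.21 and 1.19, with the smallest SD of the complex (0.02, n = 4). Over the 32 detected genes of complex I the median SD was 0.164, from 0.0199 for Ndufs1 to 0.564 for Ndufab1.

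In complex II, which also belongs to the citrate cycle, the spread differed by subunit. Sdha, the flavoprotein, lay at 2.84, 2.73, 2.70 and 2.78, and Sdhb, the iron-sulfur subunit, at 3.62, 3.75, 3.47 and 3.87. Sdhd, a membrane anchor, lay at 3.69, 3.71, 3.69 and 3.73 (SD 0.02, n = 4). Sdhc, the other anchor, lay at 1.96, 2.95, 2.73 and 3.15 (SD 0.52), so replicate 1 stood below the rest.

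In complex III, Uqcrc1, a core protein, lay at 4.19, 4.01, 3.56 and 3.96, and Uqcrfs1, the Rieske iron-sulfur protein, at 4.82, 4.95, 4.69 and 5.04. By the brightest probe of each gene, Cyc1, cytochrome c1, had the largest SD of the complex (0.36, n = 4), at 6.60, 6.04, 5.73 and 6.23. Uqcr10, a small accessory subunit, had the smallest (0.11), at 6.65, 6.78, 6.58 and 6.81. Replicate 3 was the lowest array for all 4 of these genes by that probe. A second probe of Uqcr10, also detected on all 4 arrays, lay at 5.51, 6.22, 6.01 and 6.26 (SD 0.34), lowest on replicate 1. The second probe of Cyc1 had an SD of 0.23 and was lowest on replicate 3.

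In complex IV, Cox5a lay at 6.0, 6.23, 5.85 and 6.29 and Cox5b at 6.23, 6.44, 6.10 and 6.36, 2 subunits on the matrix side. A second probe of Cox5a, also detected on all 4 arrays, lay at 4.35, 6.05, 5.63 and 5.97 (SD 0.79). By the brightest probe of each gene, the largest SD was that of the pseudogene Cox6c-ps1 (0.45, n = 4), at -3.48, -2.63, -2.79 and -2.44. The smallest was that of Cox7a2 (0.09). A second probe of Cox6c-ps1 was at background on every array.

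In complex V, the catalytic part gave 7.38, 7.51, 7.10 and 7.52 for Atp5f1a (alpha) and 4.75, 4.96, 4.68 and 4.92 for Atp5f1b (beta), which carries the catalytic sites. Atp5if1, the inhibitor of ATP hydrolysis, lay at 5.29, 5.00, 4.71 and 4.87. The c-ring genes lay at 7.41, 7.57, 7.14 and 7.55 (Atp5mc1) and at 7.23, 7.37, 6.93 and 7.42 (Atp5mc2). Atp5f1c, the gamma subunit of the rotor, had the smallest SD (0.05, n = 4), at 3.62, 3.58, 3.51 and 3.54. Replicate 3 was lowest for all 6 of these genes. By the brightest probe of each gene, Atp5pf, coupling factor 6 of the stalk, had the largest SD (0.36), at 2.54, 3.32, 3.21 and 3.24. A further probe of Atp5mk had a larger SD (0.47), at 3.41, 4.31, 4.27 and 4.43.

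The spread between arrays was tested for each gene whose brightest probe was detected on every array, against the spread of genes of like level. This used limma's prior variance with a trend on level, with p-values from the upper tail of F adjusted by the Benjamini-Hochberg method over 7570 genes. Of the 77 genes of the set 2 varied more at an adjusted p under 0.05, which is 2.60%, against 0.515% of all tested genes (39 of 7570). They were Ndufab1, the mitochondrial acyl carrier protein that is also a subunit of complex I, and Sdhc. An unadjusted p under 0.05 was found for 7 of 77 (9.09%, against 6.67% of all). The median SD of the set was 0.172, against 0.163 for all genes. These shares were not tested against each other.

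Ndufab1 lay at 3.20, 4.37, 4.07 and 4.42 on replicates 1 to 4, so replicate 1 was 0.81 below the mean of the 4 arrays (SD 0.56, 3.34 times the prior SD at that level, limma adjusted p = 0.0224). The unscaled signals were 3976, 7155, 9278 and 8854 units. Its second probe was at background on all arrays and gives no check. Sdhc was 0.74 below its mean on replicate 1 (SD 0.52, 3.28 times the prior SD, limma adjusted p = 0.0268), with signals of 1688, 2686, 3680 and 3665 units, and had 1 probe.

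Both calls rested on replicate 1. Without it the SD was 0.191 for Ndufab1 and 0.208 for Sdhc (limma adjusted p = 0.982 for both). Of the 77 genes 2 then had an unadjusted p under 0.05 by limma, against 5.63% of all genes. Both calls were also lost after quantile normalization (limma adjusted p = 0.102 and 0.143), with scaling over detected probes (0.953 for both by their 75th percentile, at least 0.136 by their median) and without replicate 3 or 4. In these settings the SD itself stayed large, from 0.535 to 0.689 for Ndufab1 and from 0.503 to 0.635 for Sdhc. The form of the prior mattered as well. With the prior degrees of freedom that limma lowers for single genes 0 of 7570 genes passed (358 with an unadjusted p under 0.05), and the common value of 24.3 used here was adopted after that result had been seen.

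**Figure D2:**
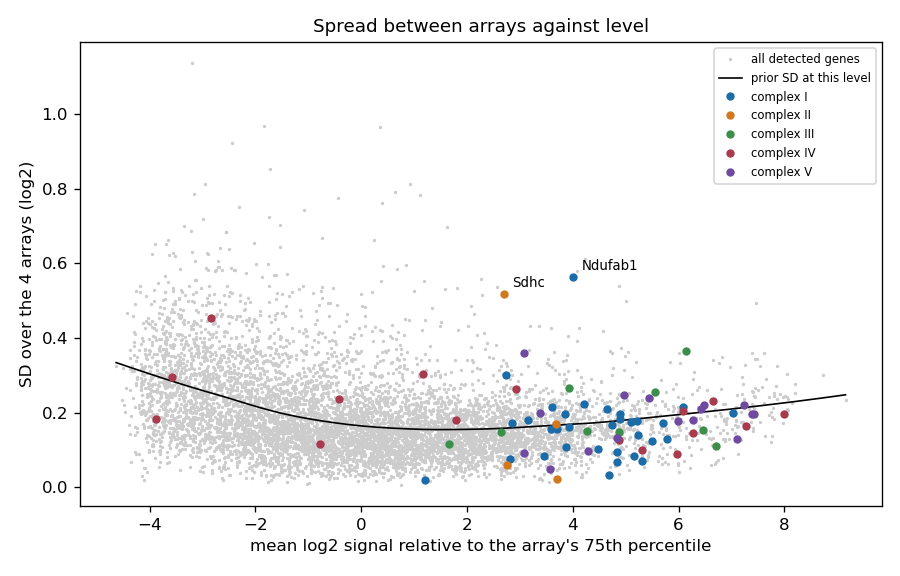
SD over the 4 arrays (y axis, log2) against the mean log2 signal relative to the array's 75th percentile (x axis) for the 7570 genes tested (grey) and the 77 detected genes of the set, coloured by complex. The line is the prior SD at each level. Most coloured points lie near the line, and Ndufab1 (SD 0.56) and Sdhc (SD 0.52) lie far above it.

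The median deviation of the set differed between arrays by small amounts. Deviations are taken here from each gene's own mean over the 4 arrays. On replicate 3 the median deviation was -0.16 for the 77 genes and -0.08 for all 7570, and 17 of 77 genes lay above their mean (22.1%, against 34.8% of all). On replicate 2 it was 0.09 for the set and 0.02 for all, with 65 of 77 above (84.4%, against 56.6%). On replicate 4 it was 0.09 and 0.05, with 61 of 77 above (79.2%, against 62.2%), and on replicate 1 it was -0.01 and 0.00, with 33 of 77 above (42.9%, against 51.4%). Replicate 3 was the lowest array for 51 of 77 genes (66.2%, against 45.3% of all), replicate 1 for 13 (16.9%, against 20.7%), replicate 2 for 7 (9.09%, against 17.8%) and replicate 4 for 6 (7.79%, against 16.2%).

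The complexes showed the low values of replicate 3 to different degrees. On replicate 3 the medians were -0.17 for complex I, -0.18 for complex III, -0.11 for complex IV and -0.20 for complex V, and -0.04 for the 4 genes of complex II. Genes above their mean there were 4 of 32 in complex I and 4 of 16 in complex V, while the 3 of 9 in complex III (33.3%) and 5 of 16 in complex IV (31.2%) were near the share of all genes. On replicate 2 the median of complex III was 0.03, near that of all genes. Brighter genes as a whole were also low on replicate 3. Among the 3785 genes above the median level of the tested genes, 20.0% lay above their mean on replicate 3, close to the 19.4% of the 72 genes of the set in that range, though the median deviation was -0.18 for the set and -0.12 for all brighter genes. On replicate 2 the set stayed apart in that range, with 83.3% above against 61.7%. After quantile normalization, which gives every array the same distribution, the set's median deviation was 0.00 on replicates 2, 3 and 4. Taking the 75th percentile over detected probes alone moved all genes by 0.11 on replicate 3, where the set then lay at -0.05 and all genes at 0.04. Such a scaling moves the set and all genes alike, so their distance of -0.09 on replicate 3 could not change.

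**Figure D3:**
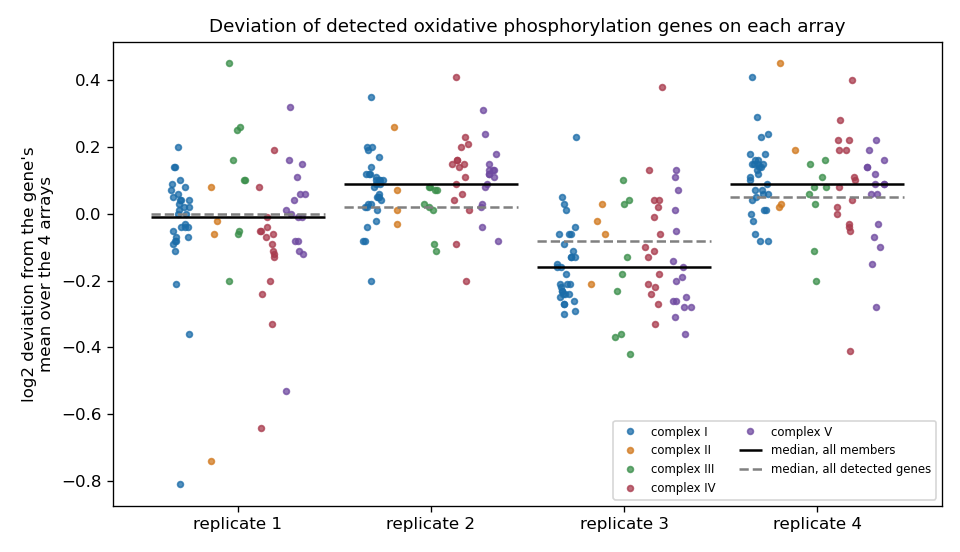
Log2 deviation from the gene's mean over the 4 arrays (y axis) for each of the 77 detected genes on each array (x axis), coloured by complex. Black lines are medians of the set and dashed grey lines medians of all 7570 tested genes. The black line lies below the grey one on replicate 3 (-0.16 against -0.08) and above it on replicates 2 and 4.

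A single array stood apart by Dixon's ratio of gap to range in 6 of 77 genes (7.79%, against 5.46% of all tested genes). Replicate 3 was the low array in Ndufv3, Uqcrq, Atp5f1d, Atp5me and Atp5pd, and replicate 1 in Atp5pf. Atp5f1d, the delta subunit of the rotor, lay at 5.59, 5.56, 5.08 and 5.53, and Atp5me, subunit e of the membrane part, at 7.16, 7.18, 6.91 and 7.16. Atp5pd, subunit d of the stalk, lay at 6.10, 6.09, 5.73 and 6.05. Uqcrq, a small subunit of complex III, lay at 6.56, 6.54, 6.24 and 6.52, and Ndufv3, the small flavoprotein subunit, at 3.68, 3.69, 3.36 and 3.64. That the other 3 arrays nearly coincided in these 5 genes follows from the ratio by which they were picked.

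The place of a spot on the array moved with the values of replicates 1 and 3. Columns 1 to 72 were set apart after an earlier look at these arrays. Of the 39 genes called over all, 36 had their spot at columns 1 to 72, where 47.4% of the 7570 tested genes had theirs, and for 30 the largest deviation was a low value on replicate 1. Ndufab1 (column 22), Sdhc (column 14) and Atp5pf (column 22) lay there too. Of the 36 genes of the set at those columns 6 were over 0.25 below their mean on replicate 1 (16.7%, against 11.8% of all genes there). Of the 41 beyond them 0 were (against 4.12% of all genes there). On replicate 3, 12 of the 36 (33.3%, against 13.4% of all genes there) and 6 of the 41 beyond (14.6%, against 8.36%) were over 0.25 below their mean, and the 5 genes in which Dixon's ratio set replicate 3 apart all had their spot at columns 1 to 72. For Atp5pd and Ndufv3 a further probe beyond column 72 was also low on replicate 3. It deviated by -0.19 at column 76 for Atp5pd and by -0.15 at column 115 for Ndufv3. How far position alone accounts for the calls was not tested.

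Probes of the same gene on either side of column 72 were set side by side, a comparison added after the data had been seen. Such probes differ in sequence as well as in place, so their differences do not measure position alone. For Cox5a the probe at column 29 was 1.15 below its own mean on replicate 1, while that at column 104 was 0.09 below. For Atp5mk, a small subunit of the membrane part of complex V, the probe at column 8 was 0.70 below, against 0.08 to 0.13 for the 3 probes beyond. For Uqcr10 the deviations were -0.49 at column 41 and -0.06 at column 100. The difference also ran upward, since Cyc1 was 0.45 above its mean at column 5 and 0.07 below at column 131, and Uqcr11 was 0.25 above at column 22 and 0.13 below at column 151. These 5 were the genes of 14 with such pairs whose probes differed by over 0.25 on replicate 1 (35.7%, against 25.4% of 693 genes). On replicates 2, 3 and 4 there were 2, 2 and 1 of 14 (14.3%, 14.3% and 7.14%, against 17.0%, 14.3% and 20.6% of 693 genes), so such differences occurred on every array.

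For Atp5mc2 the low value on replicate 3 was of like size in every probe. Its 4 probes deviated by -0.25, -0.28, -0.31 and -0.31 there. Not every gene was so even. Probes on either side of column 72 differed by over 0.25 on replicate 3 in 2 of 14 genes (14.3%, against 14.3% of 693 genes). These were Cox5a (-0.24 and 0.13) and Uqcr11 (-0.36 and -0.08). Within an array, its probe with 10 spots had an SD between spots of 0.11, 0.04, 0.03 and 0.06 on replicates 1 to 4. Atp5mf, subunit f of the membrane part, had a probe with 2 spots whose SD was 0.17, 0.08, 0.12 and 0.17. These SDs are technical and hold none of the spread between cultures.

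**Figure D4:**
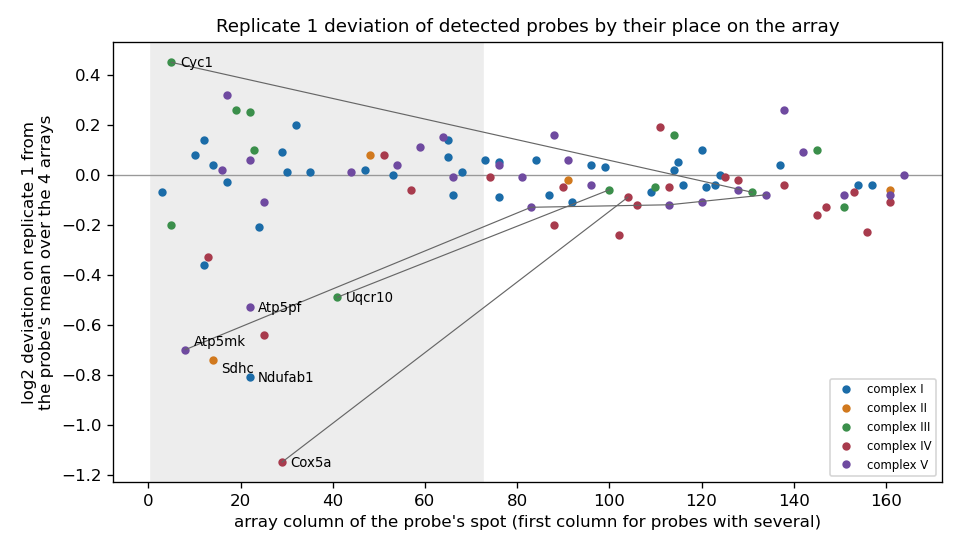
Log2 deviation on replicate 1 from the probe's own mean over 4 arrays (y axis) against the array column of its spot (x axis) for the 100 detected probes of the set, coloured by complex, with columns 1 to 72 shaded. Grey lines join probes of Cox5a, Atp5mk, Uqcr10 and Cyc1. Deviations run from -1.15 to 0.45 in the shaded columns and stay closer to 0 beyond them.

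Most genes around the complexes were detected too. Of 47 measured assembly factors 42 were detected on all 4 arrays. The exceptions were Cox19 and Cox20, at background on all arrays, Cox11 (1 array), Higd1a (2 arrays) and Ndufaf1 (3 arrays). All 16 genes counted here as citrate cycle enzymes were detected, a list that includes Pdha1, Pdhb and Dlat of the pyruvate dehydrogenase complex. Among the 16 were citrate synthase Cs at 3.00 ± 0.14 and Idh3a, a subunit of isocitrate dehydrogenase, at -0.17 ± 0.09 (SD, n = 4). Of the cytochrome c genes, Cycs was detected at 0.73 ± 0.32 and the testis form Cyct was not.

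Of 14 regulators of respiratory genes 12 were detected on all 4 arrays. Ppargc1a, the coactivator that drives mitochondrial biogenesis in muscle and brown fat, was at background on all arrays, and Gabpa was detected on 3. The relatives of Ppargc1a, Ppargc1b (-3.94 ± 0.10) and Pprc1 (0.68 ± 0.15), were detected, as were Nrf1 (-1.07 ± 0.27) and Esrra (3.72 ± 0.22, SD, n = 4). Of 6 measured carriers and uncoupling proteins, the nucleotide and phosphate carriers Slc25a4 (1.46 ± 0.11), Slc25a5 (4.76 ± 0.13) and Slc25a3 (4.16 ± 0.30) and the macrophage uncoupling protein gene Ucp2 (2.65 ± 0.19) were detected. Ucp1 of brown fat and Ucp3 of muscle were not. Of the 42 assembly factors, 16 citrate cycle enzymes, 12 regulators and 4 carriers and uncoupling proteins tested, limma's prior variance called 0 at an adjusted p under 0.05. An unadjusted p under 0.05 was found for 0 assembly factors, 0 citrate cycle enzymes, 2 regulators and 1 carrier, and for Cycs.

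Over the whole arrays, 15314 to 16708 probes passed the background flag and 0 spots were saturated. Pearson's r between arrays over the 7570 genes ran from 0.9925 to 0.9965, across genes that are no independent replicates, and no spot had the same signal on any pair of arrays. In RefSeq, 41 of the 81 genes share their name with pseudogene loci, 94 in all, with 8 for Atp5mg and 7 for Ndufb4. Probes of such genes may also bind transcripts of these copies, which was not tested.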

How the data were processed

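Gene expression was measured with 4 one-colour Agilent arrays, 1 per culture, on Cy3-labelled cRNA of total RNA. The deposited intensity values are background-subtracted processed signals of Agilent Feature Extraction 11.0.1.1 that carry no scaling between arrays, per the file headers and the submitters' processing notes. The median spot and background intensity columns, deposited by the authors, served for 1 alternative. Spots with outlier flags (634 to 669 of 58717 per array) were left out. Log2 signals were scaled to each array's 75th percentile, spots of a probe were averaged, and the brightest probe stood for a gene. Through accessions in the RefSeq table of GRCr8, 21109 of 45598 probes were named and 24489 were not. Spread was tested in limma (version 3.58.1, R 4.3.3; trended, robust prior, 24.3 prior and 3 residual degrees of freedom, Benjamini-Hochberg over 7570 genes, threshold 0.05). Tables were made with Python 3.11.15, numpy 2.4.6 and pandas 2.3.3. The test was checked on simulated data, where it missed part of the genes given a raised SD. The first bar for recovering the genes with the largest raise was not met, and other checks replaced it. Absence of a call therefore does not show stability. Having 4 arrays limits the precision.

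Genes named with values on every array were core subunits, isoforms, the members with the largest and the smallest SD of a complex, called genes and those apart by Dixon's ratio. The members and lists were chosen with earlier results of these data known. Alternatives were another background correction (normexp, offset 50), other scalings, filters, flags and priors, other probes, array position and each replicate left out. Proteins of isoform pairs, planned for comparison, were not analysed here. A few genes that the naming rule covers are not reported here.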

Additional observations from a re-analysis of the deposited data

Results flagged for a closer look

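Dixon's ratio of gap to range passed its 95% critical value for 4 samples in 6 of 77 genes, where chance alone passes in about 5% and 5.46% of all tested genes did. Replicate 3 was the low array in Atp5me (ratio 0.925, deviation -0.19), Atp5f1d (0.879, -0.36), Uqcrq (0.872, -0.23), Ndufv3 (0.851, -0.23) and Atp5pd (0.851, -0.26). In Atp5pf it was replicate 1 (0.857, -0.53), where the spot of Atp5pf lay at column 22.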

How the results depend on the processing

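Detection of 77 of 81 genes held with the lenient flag, with the brightest probe alone and with spots of outlier flags kept. With a replicate left out it was 77 by construction, as the other genes were detected on at most 1 array. It was 78 where 1 array sufficed, 75 of 79 without the pseudogene Cox6c-ps1 and the copy Ndufa10l1, and 41 of 45 beyond column 72.

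The count of 2 members called more variable held with the lenient flag, no filter on dim genes, the brighter genes alone and the mean over detected probes, and fell to 0 after quantile normalization, with scaling to the 75th percentile or the median of detected probes, with outlier-flagged spots kept, beyond column 72 and with a prior that had no trend, no robust estimation or lowered degrees of freedom. Beyond column 72 the 0 follows from leaving out Ndufab1 and Sdhc themselves. It was 6 with normexp, where Cox6b1 and Atp5pf joined Ndufab1 and Sdhc among the genes named here. It ran from 0 to 2 with each replicate left out (2 without replicate 2). In the settings with 0, limma gave an unadjusted p under 0.05 to 2 to 13 members and to 4.73% to 6.46% of all genes. The most members were 13 of 77, after quantile normalization, against 6.39% of all genes. The cause was not tested. Over all genes the count of 39 was 206 with normexp, 127 with no filter, 65 in the brighter genes, 9 without robust estimation, 5 beyond column 72 and 4 with the median of detected probes. By limma it was 0 (358 to 484 with an unadjusted p under 0.05) after quantile normalization, with the 75th percentile of detected probes, with no trend and with lowered degrees of freedom. It ran from 10 to 77 with each replicate left out.

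The median SD of 0.172 was 0.111 after quantile normalization and ran from 0.106 (without replicate 3) to 0.179 with each replicate left out. The 6 genes apart by Dixon's ratio were 2 with the median of detected probes, 3 with outlier-flagged spots kept and 0 beyond column 72, where none of the 6 had its spot, alternatives added after seeing the data. The set's median deviation minus that of all genes was -0.09 on replicate 3 and 0.07 on replicate 2. It turned to 0.04 and 0.00 after quantile normalization and to 0.03 and -0.01 with no filter, where the dim genes enter the median of all genes.

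No paired analysis was possible because the labels give 1 group. The 4 arrays, with 1 spot for most probes, limit what differences between cultures can be seen, and the effect of the particles was not measured.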

Other observations

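Several probes covered 23 of the 81 genes. In 18 of them every probe was detected on all 4 arrays. Uqcrb, a ubiquinone-binding subunit of complex III, had a probe at column 5 detected on all arrays and another at column 75 detected on 2. Uqcrq had a second probe detected on 3 arrays, at -3.57 ± 0.38 (SD, n = 4). Ndufab1 and Cox6c-ps1 each had 1 probe detected on every array and a second at background throughout, and both probes of Ndufa4l2 were at background.

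Some members went against the low values of the set on replicate 3. Cox7b was 0.38 above its mean there, Ndufb3 0.23 above and Cox6c 0.13 above, the last with a second probe 0.15 above. These genes were chosen after their values were seen.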
